A study of Neurospora crassa OR74A and Aspergillus nidulans FGSC A4 with 22 samples.

Results

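Filamentous fungi read the carbon source around them through transcription factors that activate or repress the genes for digesting each polymer. The transcripts of 9 such factors of *Neurospora crassa* were examined here, a list of named genes taken from 9582 genes measured, and each of the 9 was present in the table. CLR-1 and CLR-2 are zinc binuclear cluster proteins that activate the response to cellulose, and CLR-1 is required for *clr-2* induction. XLR-1 activates the genes for xylan and xylose, PDR-1 those for pectin and rhamnose, ARA-1 those for arabinose and galactose, and COL-26 those for starch. CRE-1 is the zinc finger repressor of carbon catabolite repression, the mechanism by which a preferred sugar keeps genes for poorer carbon sources off. CLR-3 is described as a repressor of CLR-1 in the absence of an inducer. VIB-1 is a p53-like factor of cell death that is also required for growth on cellulose.

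Wild-type *N. crassa* OR74A was grown in sucrose medium for 16 h at 25°C in constant light, washed, and moved for 4 h to medium with 2% Avicel, a crystalline cellulose, or to medium without a carbon source. Both groups thus shared strain, pregrowth and wash, and the no carbon group stands for starvation and not for a preferred sugar. Per the paper, Avicel retains some hemicellulose, so the Avicel medium did not hold cellulose alone. Each group had 3 biological replicates, and the 6 libraries were not multiplexed per the labels. The series holds 22 samples, of which 10, from the Δ*clr-2*, Pc2 and Δ*clrB* strains, were not analysed here. For each gene the table gives a single mean per group, of read counts that DESeq had scaled by a size factor for each library, which is called the authors' mean here. A mean without its libraries has no spread, so no regulator could be tested and every fold below is a description.

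Some information on single libraries could be had from the low means. Behind each mean stand whole numbers of reads, and what 1 read adds to the mean is set by the size factor of its library. In this way size factors of 0.957, 0.884 and 0.169 were obtained for the Avicel libraries and of 2.68, 2.51 and 1.03 for the no carbon libraries, numbered from the largest to the smallest in each group. They correspond to an estimated 9.67 to 112 M counted reads per library. For genes with a mean between 50 and 300, the SD of log2 normalized counts between the 3 libraries had a median of 0.39 on Avicel (1082 of 1083 genes, those with 1 solution) and 0.35 on no carbon (675 of 1140 genes). The Avicel library with the fewest reads lay farthest from the middle library in 71.8% of these genes. The SD of the other 2 Avicel libraries had a median of 0.15. These values give a typical standard error of 0.30 for the log2 ratio of such a gene, and of 0.79 where the SD of both groups is at its 90th percentile. All regulator means but 1 lie above this range of means, so the error of the regulators themselves was not measured.

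The 9 regulators were chosen with earlier results of these data known, so the shares below are a description and not a test. Of the 9 regulators, 4 had a mean at least 4-fold higher on Avicel, namely *clr-2*, *clr-3*, *vib-1* and *clr-1*. The same was true of 2.77% of the 8782 genes with a mean over both groups of at least 10. With *xlr-1*, 5 of the 9 were at least 2-fold higher, against 7.64% of these genes. None of the regulators was at least 2-fold lower, against 4.74%. The median log2 ratio of Avicel to no carbon was 1.93 over the 9 regulators and -0.01 over all 8782 genes. Summed over the 9 regulators, their share of the normalized total was 0.395% on Avicel and 0.107% on no carbon. Their summed mean was 5.05-fold higher on Avicel, and 2.91-fold higher without *clr-2* and *clr-3*.

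**Figure D1:**
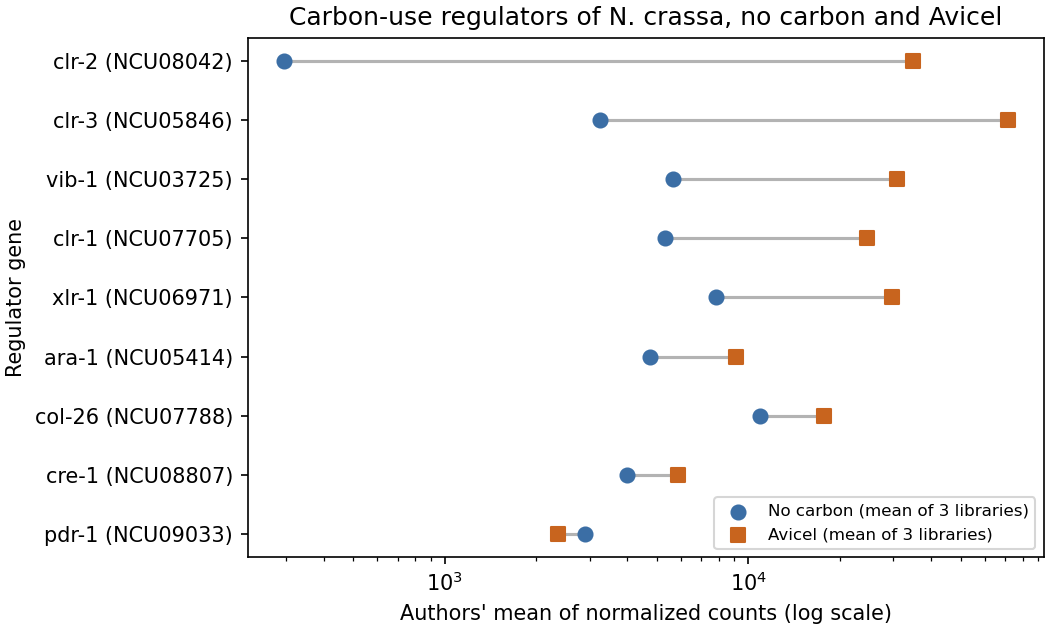
Authors' mean of normalized counts (log scale) of each regulator on no carbon (circles) and on Avicel (squares), each the mean of 3 libraries, with no error because the table gives none. The line is longest for *clr-2*, from 295 to 34926, and *pdr-1* is the one regulator whose Avicel mean lies below its no carbon mean. Levels are not divided by gene length, so they compare conditions within a gene and not genes with each other.

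The cellulose activator *clr-2* (NCU08042) had the widest gap between the groups, with an authors' mean of 295 on no carbon and 34926 on Avicel, a ratio of 118. Only 37 of the 8782 genes had a larger ratio. The no carbon mean could be taken apart into reads in 1 way only, 431, 1238 and 238 reads in libraries 1, 2 and 3. These correspond to 161, 494 and 232 normalized counts, or 295 ± 175 (SD, n = 3). Transcripts of *clr-2* were thus present in each starved culture, and the second library was high. Without it the no carbon mean was 196 and the ratio 178 in place of 118. The highest of these libraries exceeded the lowest 3.07-fold, a spread larger than or equal to that of 90.8% of the genes in the same range of means. The Avicel mean was 70.8 times the highest no carbon library, so the gap between the groups was far wider than the spread on no carbon. The Avicel mean is too high to be taken apart in the same way.

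The other cellulose activator, *clr-1* (NCU07705), had an authors' mean of 5321 on no carbon and 24595 on Avicel, 4.62-fold higher. Its log2 ratio of 2.21 was at the 97.5th percentile of the genes kept. The ratio of *clr-2* was 25.6 times that of *clr-1*, a comparison that does not depend on how the groups are scaled. At 4 h after the shift, starved cultures thus held 0.216 of the Avicel mean for *clr-1* and 0.00845 of it for *clr-2*.

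The transcript of *clr-3* (NCU05846), the repressor in this branch, was also higher on Avicel. Its authors' mean was 3252 on no carbon and 71388 on Avicel, a ratio of 22.0 with 78 of the 8782 genes kept above it. This ratio was 4.75 times that of *clr-1*. Thus, by transcript level, the repressor differed more between the groups than did the activator it is described to act on, and less than *clr-2*. The levels of the proteins were not measured.

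For *vib-1* (NCU03725) the authors' mean was 5635 on no carbon and 30813 on Avicel, 5.47-fold higher. The ratio of *vib-1* was 1.18 times that of *clr-1*, a difference of 0.24 on the log2 scale. The typical standard error of a difference between the log2 ratios of 2 genes, taken as independent, is 0.43. This error comes from genes with far lower means, and the order of *vib-1* and *clr-1* was not tested.

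The xylan regulator *xlr-1* (NCU06971) had an authors' mean of 7845 on no carbon and 29799 on Avicel. It was 3.80-fold higher, just short of the 4-fold limit, whereas *clr-1* at 4.62-fold was the member just inside it. Its log2 ratio differed from that of *clr-1* by -0.28, which is also less than that error.

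The regulators of other polymers and sugars differed less between the groups. The starch regulator *col-26* (NCU07788) had an authors' mean of 10936 on no carbon and 17715 on Avicel, a log2 ratio of 0.70. For *ara-1* (NCU05414) the means were 4735 and 9083, a log2 ratio of 0.94, at the 91.8th percentile of the genes kept. The pectin regulator *pdr-1* (NCU09033) was lower on Avicel, with authors' means of 2891 and 2357 and a log2 ratio of -0.29. That difference is within 1 typical standard error. The ratios of *col-26* and *ara-1* exceed 2 typical standard errors (0.60) but not 2 errors at the 90th percentile of the spread (1.58). These errors come from genes with far lower means, so the comparisons give a scale and are not a test.

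The repressor gene *cre-1* (NCU08807) had an authors' mean of 3985 on no carbon and 5884 on Avicel, 1.48-fold higher. Its log2 ratio of 0.56 was at the 85.6th percentile of all genes and within 2 typical standard errors. The ratio of *cre-1* was 0.319 times that of *clr-1*, under any scaling of the groups. Only 216 of the 8782 genes had a larger ratio than *clr-1*, so nearly all genes were lower relative to it. Among neighbours in the order of ratios, from *clr-2* down to *pdr-1*, 4 of the 8 steps were larger than 2 typical standard errors of a difference (0.85), as measured in genes of lower mean. These were the steps from *clr-2* to *clr-3* (2.43), from *clr-3* to *vib-1* (2.01), from *xlr-1* to *ara-1* (0.99) and, barely, from *cre-1* to *pdr-1* (0.86). With the spread at its 90th percentile, where 2 errors are 2.23, the step from *clr-2* to *clr-3* was the only one.

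**Figure D2:**
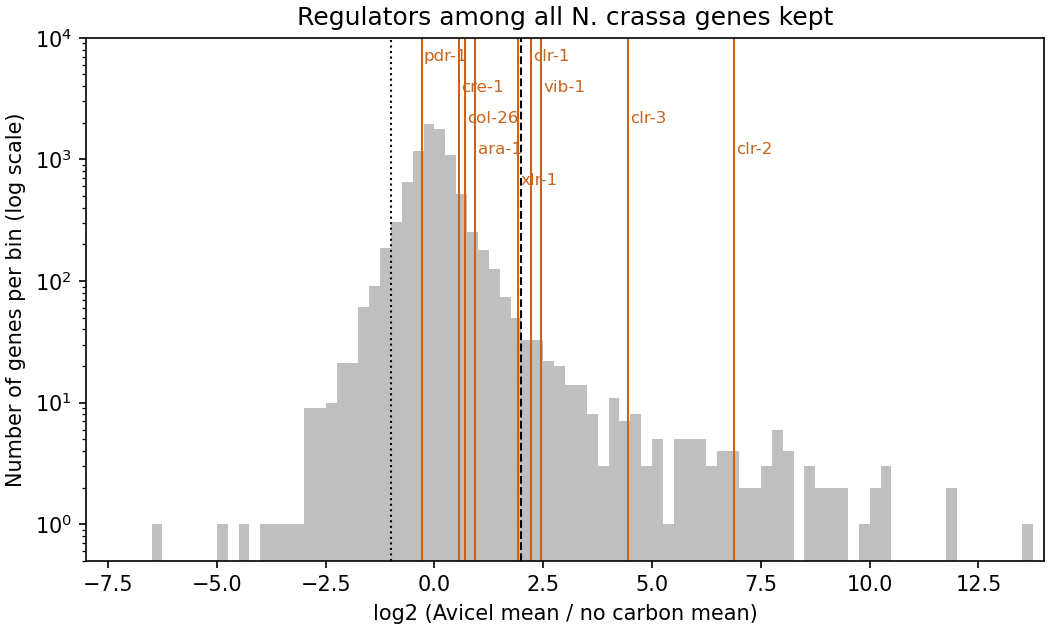
Number of genes (log scale) by log2 ratio of the Avicel mean to the no carbon mean, for the *N. crassa* genes with a mean of at least 10, with each regulator marked by a line. The dashed line is the 4-fold limit and the dotted line the 2-fold lower limit. *clr-2* at 6.89 and *clr-3* at 4.46 lie far out on the right, while *pdr-1* at -0.29 lies near the centre.

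The scaling of the groups shifts every ratio alike, so it leaves this order as it is, but it decides which regulators pass a fixed limit. The authors' means sum to 1.37 times as much on Avicel as on no carbon, and *cbh-1* (NCU07340), the major cellobiohydrolase gene, alone takes up 4.18% of the Avicel sum. Rescaled to equal sums, each log2 ratio is lower by 0.45. The ratio is then 3.99 for *vib-1* and 3.37 for *clr-1*, so 2 of the 9, *clr-2* and *clr-3*, remain at least 4-fold higher, against 2.11% of all genes kept under the same scaling. For *cre-1* the log2 ratio becomes 0.11, for *col-26* 0.24, for *ara-1* 0.49 and for *pdr-1* -0.75, and none of the 9 changes direction. The ratios of *col-26* and *ara-1* are then below 2 typical standard errors and that of *pdr-1* is above them, the reverse of the values as deposited. DESeq's size factors leave the median gene at -0.01, and centring on that gene leaves the counts of regulators at 4 and 0.

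**Figure D3:**
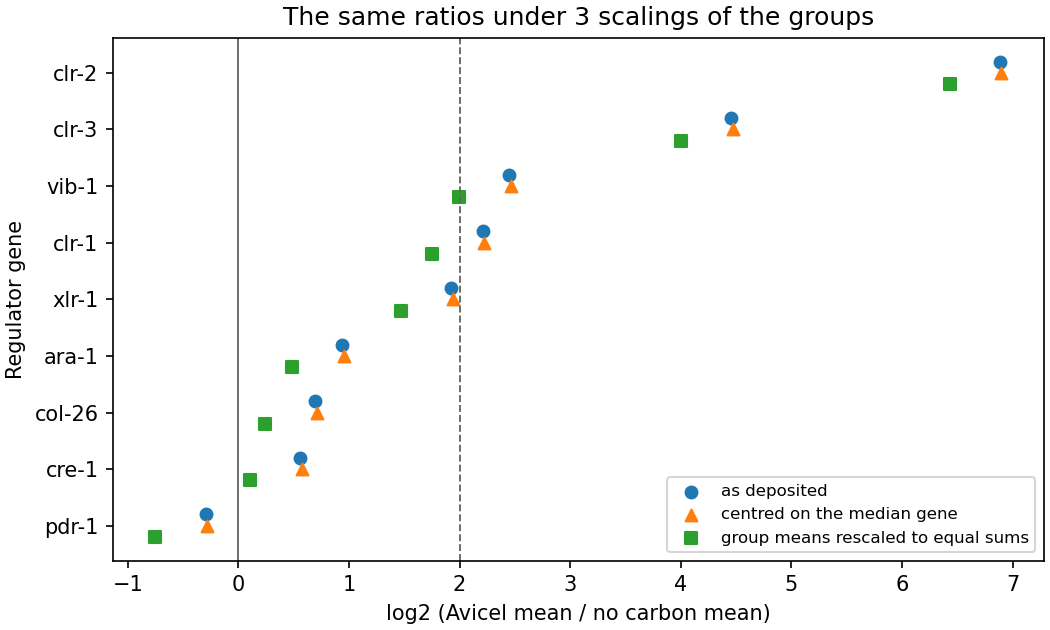
log2 ratio of Avicel to no carbon of each regulator with the values as deposited (circles), centred on the median gene (triangles) and with the groups rescaled to equal sums (squares). The dashed line is the 4-fold limit. With equal sums *vib-1* and *clr-1* move from the right of the limit to its left, to 2.00 and 1.75, and all 9 keep their side of 0.

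Genes known to be controlled by these factors were taken as lists, chosen with earlier results of these data known. Their counts are thus a description and not a test. All 7 genes listed for CLR-1 and CLR-2 and all 7 listed for XLR-1 were at least 4-fold higher on Avicel. Among all genes kept the share was 2.77%. The median log2 ratios of the 2 lists were 7.83 and 7.93. Within the CLR list the ratio ran from 11.2 for *gh3-4* (NCU04952), a secreted β-glucosidase, to 3825 for *gh5-1* (NCU00762), an endoglucanase. Each of these 7 genes had a larger ratio than *clr-1*. The same did not hold for *clr-2*. Its ratio of 118 was larger than those of *gh3-4* and *cdt-1* (NCU00801, 57.6). It was smaller than those of the rest, of which *cdt-2* (NCU08114) was the closest at 123. In the XLR-1 list, xylulose kinase *xyk-1* (NCU11353) had the smallest ratio at 7.50 and the xylanase *gh10-1* (NCU05924) the largest at 3653. All 7 exceeded the ratio of 3.80 of *xlr-1* itself. The paper ascribes the *clr-2*-independent induction of xylanase and xylose-use genes to residual hemicellulose in Avicel, which was not tested here. For 1 of the xylanase genes, *gh11-1* (NCU02855), the no carbon mean of 135 was made up of 90.5, 254 and 60.3 normalized counts in libraries 1, 2 and 3. The second library was thus the highest for *gh11-1* as for *clr-2*. Over the 675 genes used for the spread on no carbon, that library was the highest in 33.2%. It lay farthest from the middle library in 46.8% of them. Whether *gh11-1* and *clr-2* rose together in that culture was not tested. The other xylanase that could be taken apart, *gh10-1*, had 51.4, 46.6 and 36.0 in the same order, where the second library did not stand out.

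The lists for PDR-1, COL-26 and CRE-1 held 3, 3 and 1 genes, too few to relate their ratios to those of the regulators. None of the 3 genes listed for PDR-1 was 4-fold higher or 2-fold lower, with log2 ratios from 0.13 for the exopolygalacturonase *gh28-2* (NCU06961) to 0.42 for the polygalacturonase *gh28-1* (NCU02369). All 3 turn slightly negative with equal sums, to between -0.33 and -0.03. These 3 genes do not stand for all pectin genes. The pectate lyase genes NCU08176 and NCU06326 had log2 ratios of 6.54 and 2.74. Those of the rhamnogalacturonan genes NCU05598 and NCU09976 were 3.73 and 3.86. They come from the study's list of conserved CLR-2 and ClrB targets, which was drawn from genes induced on Avicel. In the starch list the glucoamylase *gla-1* (NCU01517) had a log2 ratio of -0.60 and the amylase *gh13-1* (NCU08131) of 0.51. The third gene, NCU08746, annotated as a starch binding domain protein, was 7.79-fold higher on Avicel. The high-affinity glucose transporter *hgt-1* (NCU10021), whose gene is under catabolite repression, was 2.17-fold higher, from an authors' mean of 32905 to 71401.

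**Figure D4:**
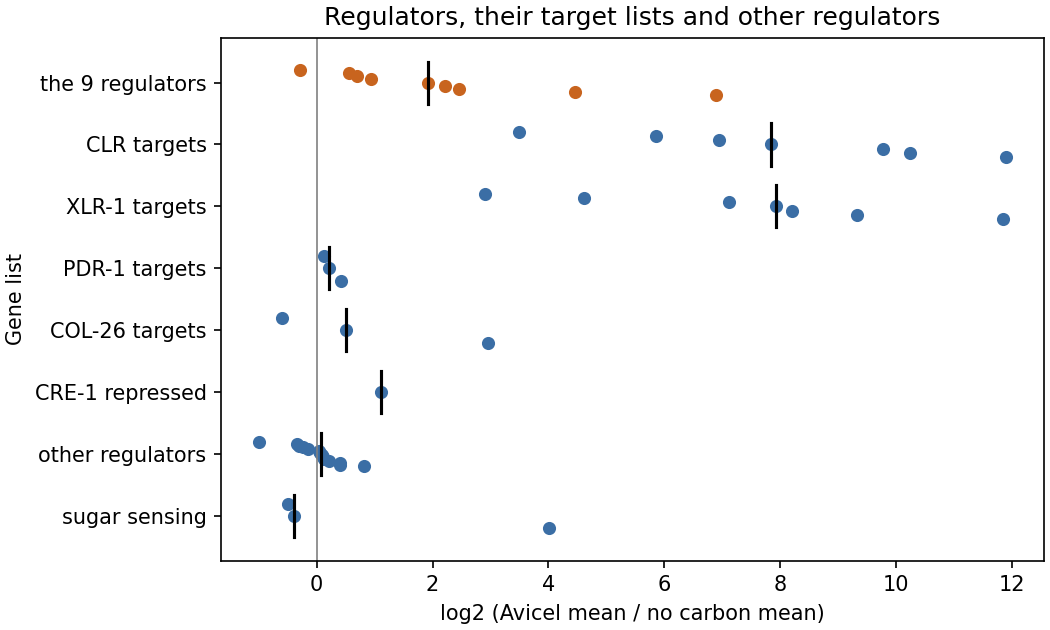
log2 ratio of Avicel to no carbon of the 9 regulators and of each gene in the lists, 1 point per gene, with the median of each list as a black bar. The lists of CLR and XLR-1 targets have medians of 7.83 and 7.93, the 14 other regulators one of 0.08.

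Other regulators served for comparison, namely 14 genes for nitrogen, sulfur, phosphate, amino acid starvation, acetate and quinic acid use, light, mating and conidiation and for general corepression. Acetate and quinic acid are carbon sources too, so the list is not free of carbon-use regulators. None of the 14 was at least 4-fold higher on Avicel, and 13 lay within 2-fold. Among all genes kept, 2.77% were at least 4-fold higher and 87.6% lay within 2-fold, so both counts are near the background. The median log2 ratio of the 14 was 0.08, against 1.93 for the 9 regulators. The highest was 0.82 for *rcm-1* (NCU06842), a corepressor subunit, and its partner *rco-1* (NCU06205) had 0.39. The lowest was *fl* (NCU08726), the activator of conidiation, with an authors' mean of 3508 on no carbon and 1750 on Avicel. It was the 1 gene of the 14 that was at least 2-fold lower, right at the limit with 2.00-fold. Among all genes kept, 4.74% were at least 2-fold lower. The acetate regulator *acu-15* (NCU06656) had 0.11 and the nitrogen regulator *nit-2* (NCU09068) 0.13, both of which turn negative with equal sums. Of 3 genes listed for sugar sensing, 2 had a log2 ratio below 0, with -0.49 for the glucose sensor *rco-3* (NCU02582) and -0.38 for the protein kinase *prk-10* (NCU04566). The third, the sugar transporter gene NCU05853, was 16.1-fold higher on Avicel.

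The 18 nearest measured genes with a RefSeq entry, 1 on each side of each regulator, were placed by RefSeq's annotation. Of these, 2 were at least 4-fold higher on Avicel and none was 2-fold lower, against 2.77% and 4.74% of all genes kept. Their median log2 ratio was 0.14. Both exceptions lie beside cellulose regulators, and in both the mean of each group could be taken apart. NCU05848, annotated as a cytochrome P450 monooxygenase, lies beside *clr-3*. It had 7.45, 3.99 and 5.84 normalized counts on no carbon and 164, 213 and 552 on Avicel in libraries 1, 2 and 3. The lowest Avicel library was 22.0 times the highest no carbon library, and it was not the library with the fewest reads, which was the highest. Without that library the ratio of the means was 32.7 in place of 53.7. NCU08043, a hypothetical protein beside *clr-2*, had 23.8, 13.2 and 40.9 on no carbon and 125, 131 and 94.9 on Avicel. Here the lowest Avicel library, the one with the fewest reads, was 2.32 times the highest no carbon library. The ratio of the means was 4.52, and 3.62 without the second no carbon library, which takes NCU08043 below the 4-fold limit. Such groups without overlap and higher on Avicel were found in 9.17% of the 1254 genes whose 6 libraries could all be recovered. The pair is thus 2 genes picked for their means, at low levels, and was not tested.

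**Figure D5:**
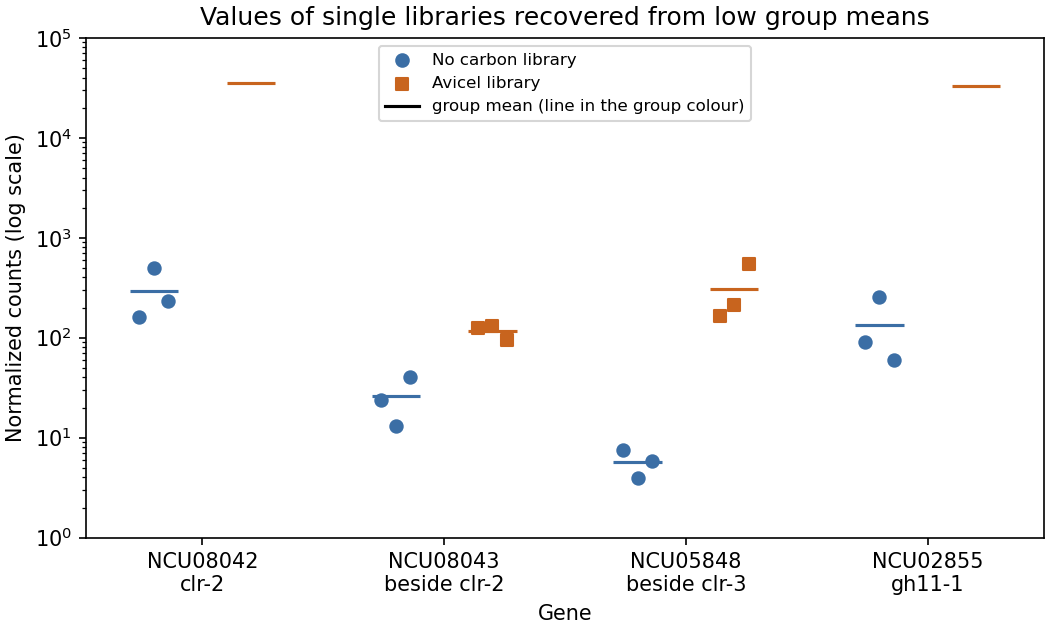
Normalized counts (log scale) of single libraries recovered from low group means for *clr-2*, for the genes beside *clr-2* and *clr-3*, and for *gh11-1*, on no carbon (circles) and Avicel (squares), left to right libraries 1 to 3. The short lines are group means, shown alone for *clr-2* and *gh11-1* on Avicel, where the mean is too high to be taken apart. The *clr-2* libraries on no carbon run from 161 to 494, below the Avicel mean of 34926.

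Counterparts in wild-type *Aspergillus nidulans* FGSC A4 are set beside these ratios without a test. These cultures were pregrown for 16 h at 37°C on 1% glucose, not sucrose, and sampled 6 h after the wash and shift, with 3 multiplexed libraries for 2% Avicel and 3 for no carbon. Their table was normalized on its own. The log2 ratio was 0.79 for *clrA* (AN5808), the counterpart of *clr-1*, and 1.32 for *clrB* (AN3369), that of *clr-2*. The protease regulator *xprG* (AN1414), paired by the study with *vib-1*, had authors' means of 23824 and 24086 on no carbon and Avicel, a log2 ratio of 0.02 that becomes -0.13 with equal sums. AN4729, paired with *clr-3*, had means of 2163 and 2528 and a log2 ratio of 0.23. None of these 4 genes was 4-fold higher, against 3.11% of the 9719 *A. nidulans* genes with a mean of at least 10.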

How the data were processed

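RNA-seq of wild-type cultures was used. Per the labels and methods, the authors aligned with TopHat 2.0.4, used HTSeq to tally what fell on unique exons, and normalized in DESeq. For the last 2 tools no version is given in the sources used here. The deposited signal is a mean per group of size-factor-scaled counts. The fold ratio, the log2 fold change and the p-values deposited by the authors hold their own comparison and were not used. The planned per-replicate test was not possible because the table holds means.

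Ratios of Avicel to no carbon were computed without a pseudocount, and percentiles, medians and counts over genes with a mean over both groups of at least 10. Means below 300 (900 for Avicel) were solved for whole reads of 3 libraries. The worth of a read was fitted to the means below 100, of which 1598 of 1598 on Avicel and 1719 of 1721 on no carbon had 1 solution. This step was tested on simulated data with size factors like those of each group. With factors like Avicel 874 of 900 simulated means had 1 solution, with factors like no carbon 564 of 600, and all 874 and 564 were the true reads. A mean with more than 1 solution was not used. Python 3.11.15, numpy 2.4.6, pandas 2.3.3, scipy 1.17.1 and matplotlib 3.10.9 were used.

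Names and neighbours came from RefSeq's table for assembly NC12, which holds 9078 of 9582 IDs and 6 of the 9 member symbols. The other names are those in the list of members. The authors' build is not stated. Start positions of NC12 served only to order genes along a chromosome for the choice of neighbours. An ID without a RefSeq entry could not be placed, and no lengths or sequences were used. The planned levels per length, the set of all annotated regulators and promoter motifs were therefore left out. Named were the 9 members, list genes, neighbours, the gene nearest each member in both means and pectin genes of the study's CLR-2 list. The members and lists were chosen with earlier results of these data known. Of 63 genes listed, 12 that no source names, or names otherwise, were left out, among them the whole ARA-1 list. Alternatives were 2 scalings, a pseudocount of 10, other filters and other fold limits.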

Additional observations from a re-analysis of the deposited data

How the results depend on the processing

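The number of regulators at least 4-fold higher on Avicel was 4 as deposited, 2 with the group means rescaled to equal sums and 2 at a fold limit of 8. It stayed within 1.5 times of 4 with a pseudocount of 10, with log2 ratios centred on the median gene, with no filter, with a minimum mean of 100, and at a fold limit of 2, where it was 5. Over all genes, the 243 that were at least 4-fold higher became 671 at a limit of 2, 135 at a limit of 8 and 185 with equal sums. The 416 that were at least 2-fold lower became 1208 with equal sums and 734 with no filter. No log2 ratio of a regulator changed sign under any of these. With equal sums all 9 moved by more than the median SD between libraries of low genes. The shift is the same for all genes and comes from the larger sum of the Avicel means. Counts over all annotated regulators and levels by coding length were not run, since no such annotation was used here. Single libraries could be left out for the no carbon mean of *clr-2* and for the genes beside *clr-2* and *clr-3*, a choice made after seeing the data. The log2 ratio of *clr-2* then ran from 6.59 to 7.48, against 6.89 with all 3 libraries. For the other regulators, and for the Avicel mean of *clr-2*, no library could be left out because their means are too high to be taken apart. No paired analysis was possible because the columns are means that carry no replicate number. The Avicel library with the fewest reads has the same weight in each Avicel mean as the others.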

Other observations

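The gene nearest to each regulator in log2 of both group means was looked up as a description over 2 means only, without a correction for length. For *clr-2* it was NCU03181, an acetylxylan esterase gene, with authors' means of 335 on no carbon and 23597 on Avicel, at a distance of 0.59. For *clr-3* it was the xylitol dehydrogenase gene NCU00891, with 2870 and 70077, at 0.18. For *vib-1* it was NCU09485 (*hsp70-6*), a chaperone of the endoplasmic reticulum, with 6237 and 26045, at 0.28. The genes nearest to *clr-1*, *xlr-1*, *ara-1*, *col-26*, *cre-1* and *pdr-1* were NCU00326, NCU00813, NCU11248, NCU04404, NCU11323 and NCU01601, at distances of 0.16, 0.10, 0.05, 0.02, 0.06 and 0.01. These have no name in the sources used here.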
